A study of Mus musculus with 8 samples.

Results

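The genes described here encode the subunits of oxidative phosphorylation complexes I to V. They were taken by symbol, as every gene whose name begins with Nduf and a subunit letter and number, is Sdha, Sdhb, Sdhc or Sdhd, or begins with Uqcr, Cox4 to Cox8 or Atp5, with the probe of the highest mean over the 8 arrays kept for each gene. The rule returned 81 of 19938 measured genes, of which 35 belong by name to complex I, 4 to complex II, 8 to complex III, 17 to complex IV and 17 to complex V. Total RNA of mouse hearts was measured on Affymetrix Mouse Gene ST arrays, with 2 arrays in each of 4 groups. The groups were MAFbx knockout (KO) hearts 1 day after permanent ligation of the left coronary artery (KO MI), wild-type (WT) hearts 1 day after the same ligation (WT MI), KO hearts after a sham operation (KO sham) and WT hearts after a sham operation (WT sham). The wild-type arrays carry the letters LM in their titles. The strain, the age, the time of collection after sham surgery and the part of the heart sampled are not given in the labels, which also leave unsaid whether each array holds the RNA of its own animal. The p-values below therefore rest on array-to-array spread that may be technical.

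MAFbx, also called atrogin-1 and encoded by Fbxo32, is the substrate-recognition subunit of a ubiquitin ligase known from muscle atrophy. Fbxo32 read 5.14 and 5.46 in KO MI and 8.35 and 8.21 in WT MI hearts, and 4.68 and 5.17 in KO sham and 8.76 and 8.79 in WT sham hearts, so every KO array lay below every WT array. All 16 cardiomyocyte markers lay above the 90th percentile of gene levels in every array. The 10 neutrophil markers had a median log2 change of MI over sham of 3.38 in KO and 5.06 in WT hearts.

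Oxidative phosphorylation takes place in the inner mitochondrial membrane. Complex I (NADH dehydrogenase) and complex II (succinate dehydrogenase) pass electrons to coenzyme Q, complex III (the cytochrome bc1 complex) passes them to cytochrome c, and complex IV (cytochrome c oxidase) passes them to oxygen, while complex V (ATP synthase) uses the proton gradient to make ATP. The heart relies on this pathway for most of its ATP, and ligation removes the oxygen supply of the muscle downstream of the tied artery. Most subunits are encoded in the nucleus and are measured here, whereas a small set of core subunits is encoded in mitochondrial DNA.

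Promoter sequences are shown for 5 of the subunit genes that changed in both genotypes, because the nuclear subunit genes are known as shared targets of a few transcription factors. The windows hold 250 bases before to 50 bases after the start site, written on the gene's strand from RefSeq build GRCm38.p6, and capitals mark a motif that was found.
Ndufc1 (chr3:51408906-51409205, minus strand): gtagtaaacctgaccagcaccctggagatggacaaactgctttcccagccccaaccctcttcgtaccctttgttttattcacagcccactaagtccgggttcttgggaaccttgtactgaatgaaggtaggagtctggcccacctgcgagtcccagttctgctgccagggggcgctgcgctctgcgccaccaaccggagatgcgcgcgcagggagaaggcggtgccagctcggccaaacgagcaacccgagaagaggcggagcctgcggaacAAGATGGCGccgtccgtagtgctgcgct
Ndufs7 (chr10:80249199-80249498, plus strand): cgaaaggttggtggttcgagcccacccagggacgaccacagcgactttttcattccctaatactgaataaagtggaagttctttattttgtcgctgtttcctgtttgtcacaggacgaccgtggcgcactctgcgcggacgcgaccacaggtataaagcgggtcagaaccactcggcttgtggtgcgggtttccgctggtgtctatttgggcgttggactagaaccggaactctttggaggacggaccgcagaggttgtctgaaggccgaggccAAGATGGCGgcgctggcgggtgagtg
Cox7a1 (chr7:30183921-30184220, plus strand): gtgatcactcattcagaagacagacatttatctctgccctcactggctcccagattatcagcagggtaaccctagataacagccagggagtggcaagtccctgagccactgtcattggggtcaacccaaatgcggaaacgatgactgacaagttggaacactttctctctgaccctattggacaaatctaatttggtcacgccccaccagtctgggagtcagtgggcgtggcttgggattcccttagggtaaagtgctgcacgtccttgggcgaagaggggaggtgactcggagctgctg
Atp5g2 (chr15:102670998-102671297, minus strand): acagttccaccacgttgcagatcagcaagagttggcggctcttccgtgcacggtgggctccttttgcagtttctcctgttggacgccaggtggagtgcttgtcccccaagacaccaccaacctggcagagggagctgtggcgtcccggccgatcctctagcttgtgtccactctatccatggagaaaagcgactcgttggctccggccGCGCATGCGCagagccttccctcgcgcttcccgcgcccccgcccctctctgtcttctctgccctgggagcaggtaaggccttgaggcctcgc
Atp5md (chr19:47090598-47090897, minus strand): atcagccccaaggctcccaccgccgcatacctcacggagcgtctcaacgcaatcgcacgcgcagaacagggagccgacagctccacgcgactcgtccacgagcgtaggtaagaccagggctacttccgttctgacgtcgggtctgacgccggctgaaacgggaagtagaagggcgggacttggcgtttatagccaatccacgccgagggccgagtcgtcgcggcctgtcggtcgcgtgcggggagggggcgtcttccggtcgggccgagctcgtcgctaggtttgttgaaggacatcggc
The capitals in Ndufc1 and Ndufs7 are a YY1 motif (AANATGGCG), and those in Atp5g2 are an NRF1 motif (GCGCANGCG) read on both strands, whose 2 matches overlap. Cox7a1 and Atp5md held neither of these nor the GABP motif (CCGGAAGT) or the estrogen-related receptor motif (TNAAGGTCA) in this window. Of the other genes that changed in both genotypes, Ndufa13 has a window, not shown, that held none of these motifs. Ndufa2 had no window. Both strands were searched, and RefSeq gave 71 promoter windows for 66 of the 81 subunit genes. The NRF1 motif stood in 20 of the 71 windows, or 28.2%, against 6.25% of all 32851 windows of the same length. The YY1 motif stood in 14.1% of the subunit windows against 2.38% of all windows, the GABP motif in 7.04% against 3.89%, and the estrogen-related receptor motif in 2.82% against 1.28%. Among the 10 subunit genes with a window that fell after infarction in KO or WT hearts, 2 held the NRF1 motif and 2 the YY1 motif. The NRF1 and YY1 motifs were first searched in forms 1 or 2 letters longer and were shortened after those counts had been seen. The longer forms matched fewer windows, in the subunit genes and in all genes, and did not match Ndufc1, so these shares and that match depend on the letters chosen. A motif match describes the letters only.

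The subunit genes were among the brightest on the array. In mean level, 67 of the 81 lay above the 90th percentile of all genes (8.98 on the log2 scale) and 78 above the median (5.80), and only the testis isoform gene Cox7b2 lay below the 25th percentile (4.04). Levels of different probes are not compared with each other below, since a probe's brightness also depends on its sequence. Of the 81 genes, 16 had more than 1 probe, and the 24 probes not used differed from the probe used by a median of 0.05 in the KO response and 0.07 in the WT response (log2). Cox7a2l had the widest gap between its probes, 0.40 in KO and 0.36 in WT hearts.

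Infarction moved few subunit genes by much, and the ones it moved went in both directions. In KO hearts 7 subunit genes fell and 5 rose, and in WT hearts 12 fell and 1 rose, at an adjusted p under 0.05 in limma with Benjamini-Hochberg adjustment over all 19938 genes. The median log2 change of the 81 genes was -0.05 in KO hearts, against 0.01 for all genes, and -0.15 in WT hearts, against 0.04 for all genes. Of the 81 genes, 47 lay below 0 in KO hearts, or 58%, against 48.5% of all genes, and 64 lay below 0 in WT hearts, or 79%, against 45.3% of all genes. In RNA of heart tissue, fewer cardiomyocytes in the sample and less of an RNA per cardiomyocyte cannot be told apart.

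Across all genes, 10.3% fell and 10.5% rose in KO hearts, and 15.8% fell and 12.3% rose in WT hearts. The subunit shares were 8.64% lower and 6.17% higher in KO hearts, and 14.8% lower and 1.23% higher in WT hearts. The shares that fell are thus near those of all genes in both genotypes, and the share that rose in WT hearts is below that of all genes. In WT hearts both MI arrays lay below both sham arrays for 52 subunit genes, or 64.2%, against 31.6% of all genes, and above them for 9 genes, or 11.1%, against 35% of all genes. In KO hearts these shares were 33.3% of subunit genes below, against 27.5% of all genes, and 25.9% above, against 28.1%.

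Those shares moved with brightness and with the scaling of the arrays. Among the 1994 brightest genes by mean level, or 10% of all, 53.6% had both WT MI arrays below both WT sham arrays, against 67.2% of the 67 subunit genes among them. Their median WT change was -0.15, and that of the 67 subunit genes was -0.16. When the fit was limited to those bright genes, 8 of the 67 subunit genes fell in KO hearts, or 11.9%, against 27.8% of the bright genes, and 23 fell in WT hearts, or 34.3%, against 39.1%. Cyclic loess, which removes brightness-dependent shifts between arrays, brought the subunit median to -0.01 in both KO and WT hearts, with 7 lower and 5 higher genes in KO hearts and 6 lower and 6 higher in WT hearts. A lower level of the subunit set as a whole therefore depended on the scaling, while the subunit calls made within a genotype and described next also passed under cyclic loess unless stated.

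**Figure D1:**
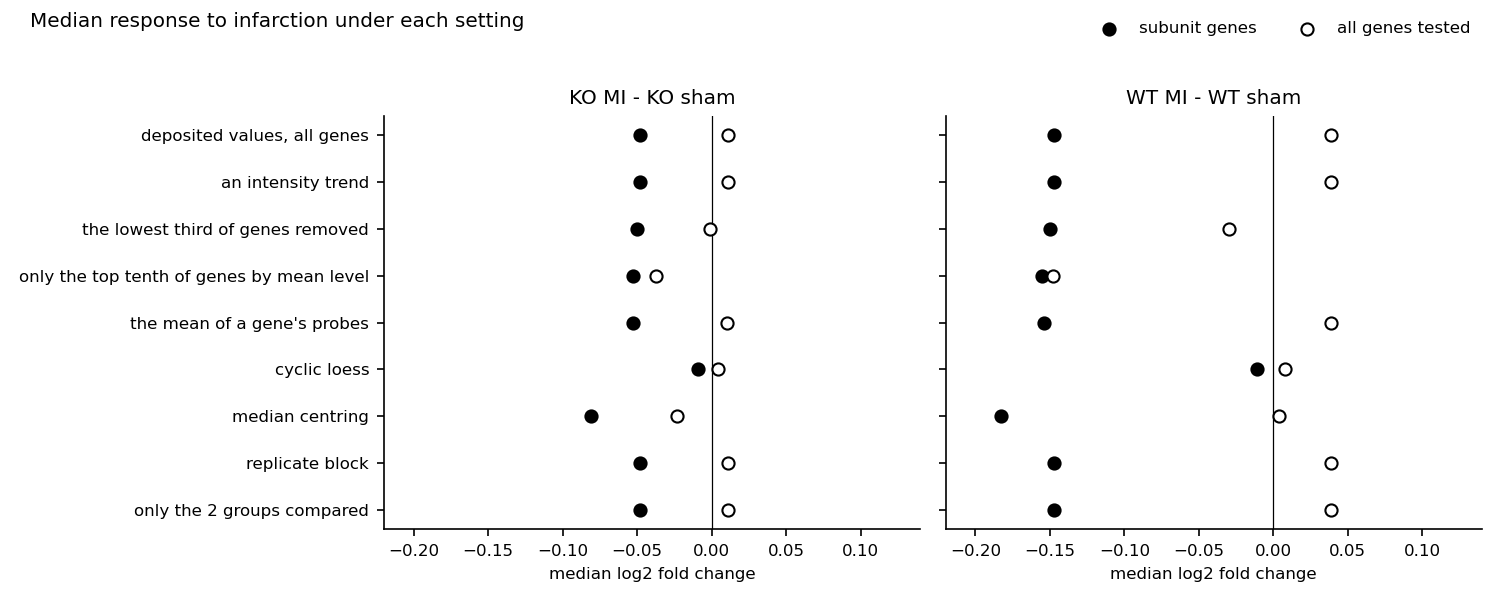
Median log2 fold change of the subunit genes (filled circles) and of all genes tested (open circles) under each setting, for KO MI against KO sham (left) and WT MI against WT sham (right). The subunit median is -0.05 in KO and -0.15 in WT hearts with the deposited values, and -0.01 in both with cyclic loess.

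**Figure D2:**
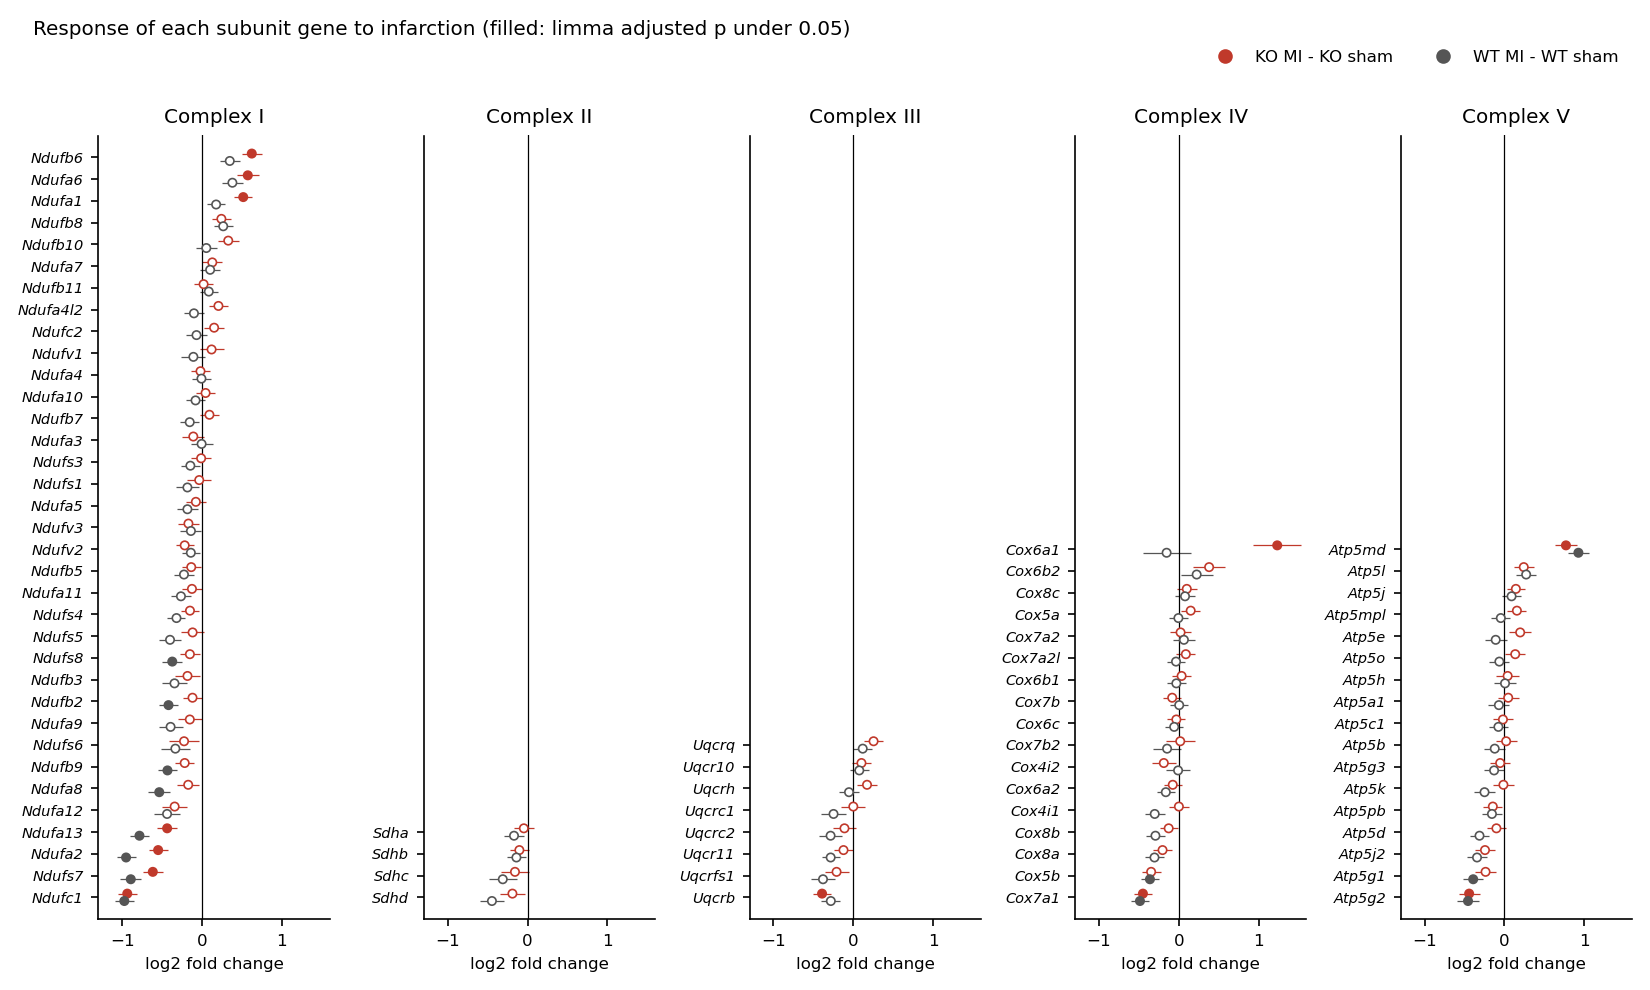
Log2 fold change of MI over sham for each of the 81 subunit genes, by complex, in KO (red) and WT (grey) hearts. Bars are standard errors of the limma fit and filled circles have an adjusted p under 0.05, which holds for 12 genes in KO and 13 in WT hearts.

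The 3 largest falls in KO hearts and the 4 largest in WT hearts were of complex I genes. Over its 35 genes the median change was -0.12 in KO and -0.18 in WT hearts, with 4 lower and 3 higher calls in KO hearts and 8 lower and no higher calls in WT hearts. The KO median was -0.02 without KO MI replicate 1 and -0.06 without KO sham replicate 2. Beside the complex I counts, 10.3% of all genes fell and 10.5% rose in KO hearts, and 15.8% fell and 12.3% rose in WT hearts. In the fit of the 1994 brightest genes, 27.8% fell and 25.8% rose in KO hearts, and 39.1% fell and 21.9% rose in WT hearts. Ndufc1, a small accessory subunit of the membrane arm, read 9.81 and 9.83 in KO MI hearts and 10.80 and 10.72 in KO sham hearts, and 9.95 and 9.86 in WT MI hearts and 10.86 and 10.90 in WT sham hearts. Both MI groups lay almost 1 log2 unit below both sham groups, with no overlap. Its change was -0.94 ± 0.12 (SE) in KO hearts, adjusted p = 0.000508 in limma, and -0.97 ± 0.12 in WT hearts, adjusted p = 0.000244. A second Ndufc1 probe gave -0.72 in KO and -0.97 in WT hearts.

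Ndufa2, an accessory subunit of the matrix arm, read 9.61 and 9.79 in KO MI hearts and 10.27 and 10.24 in KO sham hearts, and 9.49 and 9.44 in WT MI hearts and 10.40 and 10.44 in WT sham hearts. The MI and sham arrays did not overlap in either genotype. The change was -0.55 ± 0.12 in KO hearts (limma adjusted p = 0.0101) and -0.95 ± 0.12 in WT hearts (0.000337). Ndufs7, a core subunit that holds the last iron-sulfur cluster before coenzyme Q, read 12.37 and 12.49 in KO MI hearts and 12.93 and 13.16 in KO sham hearts, and 12.30 and 12.36 in WT MI hearts and 13.26 and 13.19 in WT sham hearts. Again all MI arrays lay below all sham arrays, with a log2 change of -0.62 ± 0.13 in KO hearts (limma adjusted p = 0.00793) and -0.89 ± 0.13 in WT hearts (0.000706). Without KO MI replicate 1 the KO calls of Ndufa2 (adjusted p = 0.0905) and Ndufs7 (0.0693) missed the threshold, and their WT calls passed under each of the 17 alternatives.

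Ndufa13, also known as GRIM-19, an accessory subunit needed for complex I assembly, read 10.10 and 10.25 in KO MI hearts and 10.54 and 10.68 in KO sham hearts, and 9.95 and 9.89 in WT MI hearts and 10.75 and 10.66 in WT sham hearts. It was lower in every MI array than in every sham array, with changes of -0.44 ± 0.12 in KO hearts (limma adjusted p = 0.0323) and -0.79 ± 0.12 in WT hearts (0.00117). The KO call was lost without KO MI replicate 1, KO MI replicate 2, KO sham replicate 2, WT sham replicate 1 or WT sham replicate 2, or with only the 2 KO groups in the fit, with adjusted p up to 0.19. The WT call passed under all 17 alternatives.

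In WT hearts 4 further complex I genes fell. They were the accessory subunits Ndufa8 at -0.54, Ndufb9 at -0.43 and Ndufb2 at -0.42 and the core iron-sulfur subunit Ndufs8 at -0.37, with limma adjusted p between 0.0167 and 0.0494. The same genes had changes of -0.17, -0.22, -0.12 and -0.15 in KO hearts, where none passed. The Ndufa8 call was lost without WT MI replicate 2 or WT sham replicate 2, that of Ndufb9 without WT MI replicate 1 or either WT sham array, that of Ndufb2 without any 1 of the WT arrays and that of Ndufs8 without any 1 of the WT or KO MI arrays. The calls of Ndufb9, Ndufb2 and Ndufs8 were also lost under cyclic loess. The KO and WT changes of these genes did not differ at an adjusted p under 0.05.

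In KO hearts 3 complex I accessory genes rose. Ndufb6, of the membrane arm, read 11.84 and 11.92 in KO MI hearts and 11.16 and 11.36 in KO sham hearts, and 11.71 and 11.70 in WT MI hearts and 11.33 and 11.39 in WT sham hearts. Its MI arrays lay above its sham arrays in both genotypes, with a change of 0.62 ± 0.12 in KO hearts (limma adjusted p = 0.00616) and 0.35 ± 0.12 in WT hearts (0.0628), where it did not pass. Ndufa6, of the matrix arm, had changes of 0.57 in KO hearts (limma adjusted p = 0.0154) and 0.38 in WT hearts (0.065). Ndufa1, a membrane-arm subunit needed for complex I assembly, had 0.52 in KO hearts (0.0117) and 0.18 in WT hearts (0.301). Under cyclic loess all 3 genes also passed as higher in WT hearts. Without KO MI replicate 2 none of the 3 KO calls passed, and Ndufa1 was also lost without KO MI replicate 1 and Ndufa6 without KO sham replicate 2. Averaged over the genotypes all 3 rose, at 0.48, 0.48 and 0.35 in that order, and those averaged calls passed under each of the 16 alternatives run. Ndufb8, of the membrane arm, averaged 0.25 (limma adjusted p = 0.0419) and Ndufa12, of the matrix arm, averaged -0.39 (0.0223), but the Ndufb8 call was lost without any 1 array other than WT MI replicate 1 and under median centring, and the Ndufa12 call without KO MI replicate 1, KO sham replicate 2, WT MI replicate 1 or WT sham replicate 2 and under cyclic loess.

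Other core subunits of complex I gave no call. Ndufv1 and Ndufv2, which carry the NADH-binding end, had changes of 0.12 and -0.22 in KO hearts and -0.11 and -0.14 in WT hearts. Ndufs1 and Ndufs3 had -0.04 and -0.01 in KO hearts and -0.18 and -0.15 in WT hearts, and none of the 4 passed in either genotype. Genes of 1 complex therefore spread from -0.94 to 0.62 in KO hearts and from -0.97 to 0.38 in WT hearts.

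**Figure D3:**
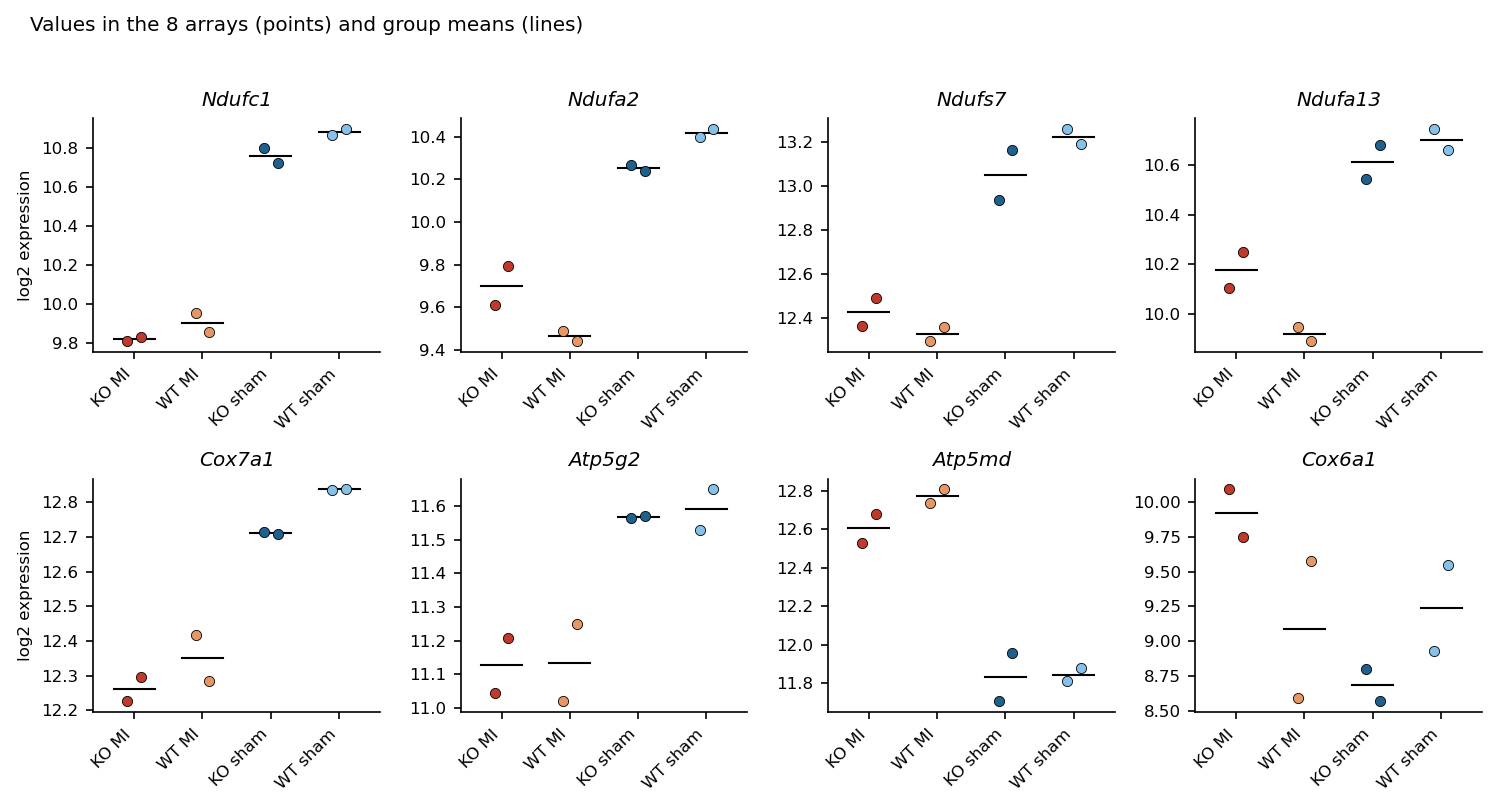
Log2 expression of 8 subunit genes in each of the 8 arrays (points) with group means (lines); each panel has its own range. Ndufc1, Ndufa2, Ndufs7, Ndufa13, Cox7a1 and Atp5g2 are lower and Atp5md is higher in every MI array than in every sham array, while Cox6a1 is spread widely within WT MI and WT sham.

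Complexes II and III gave few calls. The 4 complex II genes all lay below 0, between -0.19 and -0.05 in KO hearts and between -0.45 and -0.14 in WT hearts, and none passed in either genotype. Sdhd, which encodes a membrane anchor of the complex, passed only in the average over genotypes, at -0.32 ± 0.11 (limma adjusted p = 0.0422), and lost that call without KO MI replicate 1, KO sham replicate 2, WT MI replicate 2 or either WT sham array, and under cyclic loess. The catalytic Sdha had -0.05 in KO and -0.17 in WT hearts.

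In complex III the median was -0.06 in KO hearts and -0.26 in WT hearts. Uqcrb, which lies at the quinone-binding side of the complex, read 12.88 and 12.95 in KO MI hearts and 13.26 and 13.35 in KO sham hearts, and 12.99 and 13.00 in WT MI hearts and 13.34 and 13.22 in WT sham hearts. Its MI arrays lay below its sham arrays in both genotypes, with -0.39 ± 0.12 in KO hearts (limma adjusted p = 0.0434) and -0.28 ± 0.12 in WT hearts (0.109, not passing). The KO call was lost when any 1 of the 8 arrays was left out. Averaged over genotypes Uqcrb fell by 0.34 (limma adjusted p = 0.0107), a call that passed under 15 of 16 alternatives and was lost without WT sham replicate 1 (0.0582). Uqcrq, a small subunit, had the highest averaged change of the complex, 0.19, with no call (0.115). The Rieske iron-sulfur gene Uqcrfs1 had -0.21 in KO and -0.38 in WT hearts, and the core protein genes Uqcrc1 and Uqcrc2 had 0.00 and -0.11 in KO and -0.25 and -0.28 in WT hearts, with no call. Leaving out 1 array moved the complex III median in KO hearts between -0.18 and 0.13, so its sign was not settled.

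Several complex IV subunits come as isoforms, with a heart and skeletal muscle form and a broadly expressed form. The muscle form gene Cox7a1 read 12.23 and 12.30 in KO MI hearts and 12.71 and 12.71 in KO sham hearts, and 12.42 and 12.28 in WT MI hearts and 12.84 and 12.84 in WT sham hearts. It fell without overlap in both genotypes, with a log2 change of -0.45 ± 0.12 in KO hearts (limma adjusted p = 0.0231) and -0.49 ± 0.12 in WT hearts (0.012). Its broadly expressed counterpart Cox7a2 had changes of 0.02 and 0.06. The Cox7a1 call in KO hearts was lost without KO MI replicate 1 or 2, KO sham replicate 1 or either WT sham array, or with only the 2 KO groups in the fit, and that in WT hearts without WT MI replicate 2 or either WT sham array. The call averaged over genotypes, -0.47 ± 0.08 at adjusted p = 0.00158, passed under all 16 alternatives.

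The other isoform pairs did not follow Cox7a1 and Cox7a2. Cox6a2, the muscle form, had -0.08 in KO and -0.16 in WT hearts, with no call. Cox6a1, the broad form, read 10.09 and 9.75 in KO MI hearts and 8.80 and 8.57 in KO sham hearts, and 8.60 and 9.57 in WT MI hearts and 8.93 and 9.55 in WT sham hearts. The WT MI arrays differed from each other by almost 1 log2 unit and overlapped the WT sham arrays, whereas the KO MI arrays lay above the KO sham arrays. The change was 1.23 ± 0.30 in KO hearts (limma adjusted p = 0.0175) and -0.15 ± 0.30 in WT hearts (0.751). The KO call was lost without KO MI replicate 1, KO MI replicate 2 or KO sham replicate 2, with adjusted p up to 0.122, and the difference between the genotypes' responses, 1.39 ± 0.43, had an adjusted p of 0.516.

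Cox8b, a muscle form, and Cox8a, the broad form, lay below 0 together, with Cox8b at -0.13 and Cox8a at -0.20 in KO hearts and -0.29 and -0.30 in WT hearts. Neither passed within a genotype, and in the average over genotypes Cox8a passed at -0.25 (limma adjusted p = 0.0349) while Cox8b, at -0.21, did not (0.0713). The Cox8a call was lost when any array but KO sham replicate 2 was left out, and under cyclic loess. Cox4i2 and Ndufa4l2, isoforms known for induction by low oxygen, had changes of -0.19 and 0.20 in KO hearts and -0.01 and -0.10 in WT hearts, and neither passed. Ndufa4, counted in complex I by its name although it is known as a complex IV subunit, had -0.02 and -0.01. The main form Cox4i1 had 0.00 in KO and -0.30 in WT hearts. Cox6b1, Cox7b and Cox7a2l, a related protein that joins complexes into supercomplexes, lay between -0.08 and 0.09 in KO hearts and between -0.03 and 0.01 in WT hearts. The Cox7a2l probe not used had -0.31 in KO and -0.40 in WT hearts, so that gene's direction in KO hearts depended on the probe. The testis forms Cox6b2, Cox7b2 and Cox8c lay between 0.02 and 0.38 in KO hearts and between -0.15 and 0.22 in WT hearts, and none of these genes passed.

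Cox5b, a nuclear subunit with a single form, fell by 0.36 in WT hearts (limma adjusted p = 0.045) and had -0.35 in KO hearts (0.066). The WT call was lost without any 1 of the WT MI, WT sham or KO MI arrays and under cyclic loess. The call averaged over genotypes, -0.35 ± 0.08 at adjusted p = 0.00778, passed under all 16 alternatives.

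**Figure D4:**
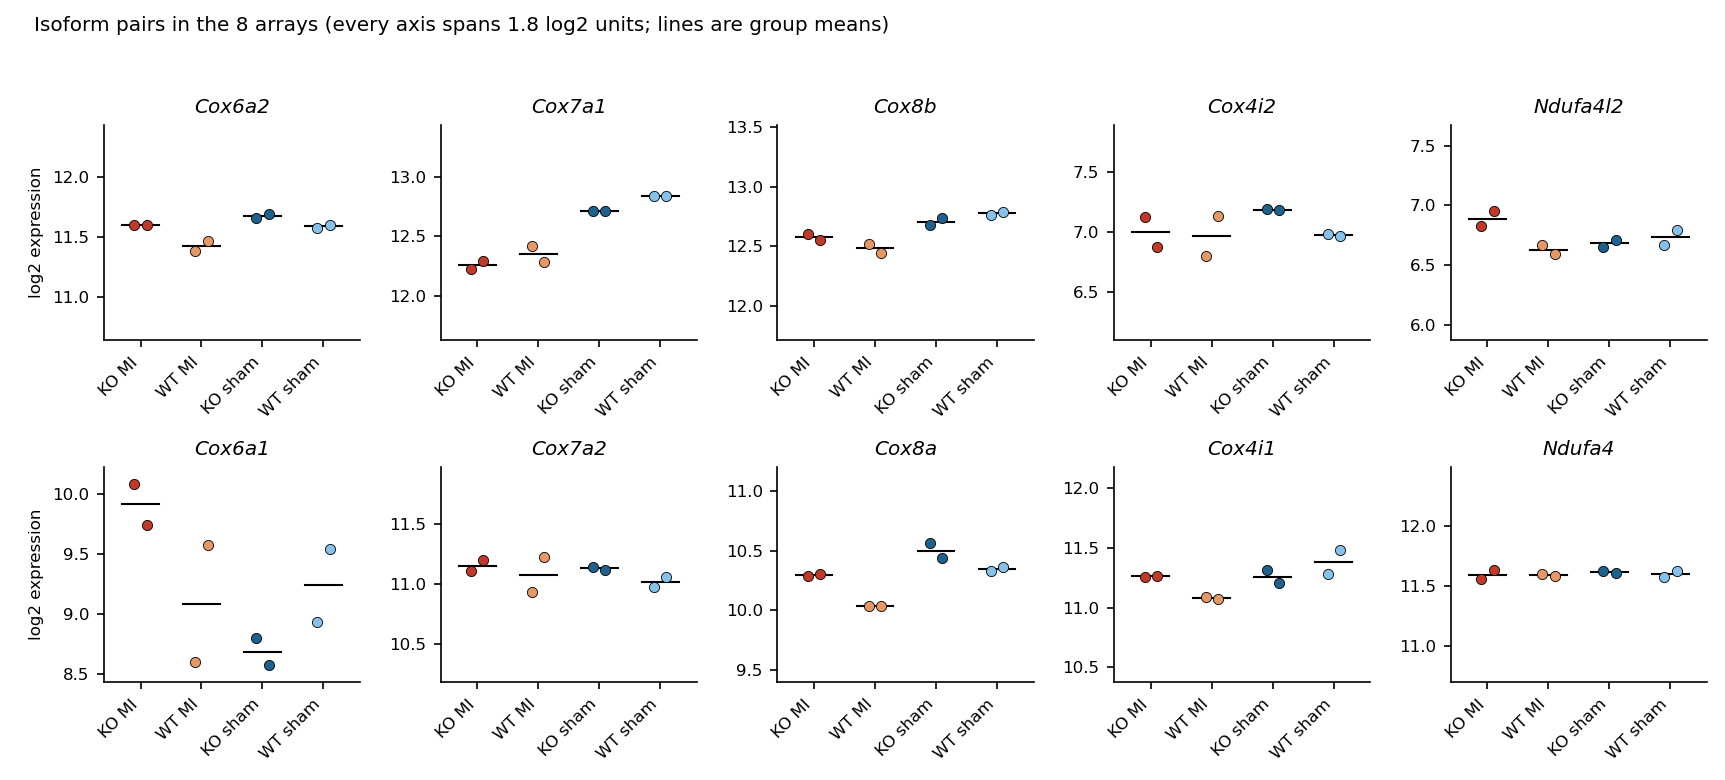
Log2 expression of 5 isoform pairs in the 8 arrays (points) with group means (lines), where the upper row holds the muscle forms Cox6a2, Cox7a1 and Cox8b and the low-oxygen forms Cox4i2 and Ndufa4l2 and the lower row their counterparts. Only Cox7a1 among these 10 genes has an adjusted p under 0.05 in both genotypes.

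In complex V the gene that moved furthest rose. Atp5md, also called DAPIT, a small membrane protein of the ATP synthase known from work on dimers of the enzyme, read 12.53 and 12.68 in KO MI hearts and 11.71 and 11.96 in KO sham hearts, and 12.74 and 12.81 in WT MI hearts and 11.81 and 11.88 in WT sham hearts. All MI arrays lay above all sham arrays, with a change of 0.77 ± 0.13 in KO hearts (limma adjusted p = 0.00301) and 0.93 ± 0.13 in WT hearts (0.000682). It was the 1 subunit gene to rise in WT hearts in the main fit of all genes. Ndufa6 and Ndufb6 joined it with an intensity trend or without the dimmest genes. Under cyclic loess Ndufa1, Ndufa6, Ndufb6, Ndufb8 and Atp5l also rose in WT hearts. Atp5md passed in both genotypes under all 17 alternatives. Its other probes gave 0.82 and 0.85 in KO hearts and 0.96 and 1.04 in WT hearts. Atp5l, the g subunit, averaged 0.26 over the genotypes (limma adjusted p = 0.049), a call lost without any 1 array other than KO sham replicate 1. It was also lost under median centring and with a replicate block. The Atp5l probe used had changes of 0.24 in KO and 0.27 in WT hearts. The other Atp5l probes gave 0.27 to 0.36 in KO hearts and 0.26 to 0.43 in WT hearts.

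The c ring, which turns in the membrane, is encoded by Atp5g1, Atp5g2 and Atp5g3, whose mature proteins are identical. Atp5g2 read 11.04 and 11.21 in KO MI hearts and 11.57 and 11.57 in KO sham hearts, and 11.02 and 11.25 in WT MI hearts and 11.53 and 11.65 in WT sham hearts. It lay lower in all MI arrays, with -0.44 ± 0.13 in KO hearts (limma adjusted p = 0.0411) and -0.46 ± 0.13 in WT hearts (0.0281). Atp5g1 had -0.24 in KO hearts, with no call, and fell by 0.39 in WT hearts (adjusted p = 0.0485), and Atp5g3 had -0.05 and -0.13. The Atp5g2 call in KO hearts was lost without any 1 of the KO arrays or WT sham arrays, and that in WT hearts without WT MI replicate 1 or either WT sham array. The Atp5g1 call was lost without any 1 of the WT or KO MI arrays. The KO call of Atp5g2 was also lost with the mean of the gene's probes and with only the 2 KO groups in the fit. Its other probes gave -0.39 and -0.34 in KO hearts and -0.445 and -0.37 in WT hearts. Under cyclic loess neither WT call passed. The call of Atp5g2 averaged over genotypes, -0.45 ± 0.09 at adjusted p = 0.00401, passed under all 16 alternatives.

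The catalytic head genes of complex V differed little between MI and sham. Atp5a1, Atp5b and Atp5c1, which encode the alpha, beta and gamma subunits, had changes of 0.05, 0.02 and -0.02 in KO hearts and -0.07, -0.12 and -0.07 in WT hearts. None of the 5 head and central-stalk genes and none of the 4 peripheral-stalk genes passed in either genotype. At an unadjusted limma p under 0.05 complex V as a whole had 1 lower and 1 higher gene in KO hearts and 4 lower and 1 higher gene in WT hearts, of 17 genes. Of all 19938 genes, 3222 were lower and 3142 higher at that threshold in KO hearts, and 4087 lower and 3641 higher in WT hearts.

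The same 6 genes, Ndufc1, Ndufa2, Ndufs7, Ndufa13, Cox7a1 and Atp5g2, fell in both genotypes, which is 85.7% of the 7 lower calls in KO hearts and 50% of the 12 in WT hearts. Atp5md was the 1 gene higher in both, or 20% of the 5 higher calls in KO hearts. The overlap of calls over all genes was not counted, so these shares are not set against a background. The KO and WT log2 changes share no arrays, but their calls came from the same fit with a shared residual variance. The KO calls of Ndufa13, Cox7a1 and Atp5g2 were lost when either WT sham array was left out. The calls in KO and WT hearts are therefore not independent of each other. Averaged over the genotypes, 18 subunit genes fell, or 22.2% against 19.4% of all genes, and 6 rose, or 7.41% against 17.2%. With cyclic loess these counts were 10 lower and 9 higher, and with median centring 24 lower and 4 higher. Of the 81 genes, 56 passed in none of the comparisons made.

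Whether the knockout altered these genes was asked in both conditions. In KO MI against WT MI hearts, in KO sham against WT sham hearts, in the difference of the 2 responses and in KO against WT averaged over conditions, limma called 0 of the 81 genes. At an unadjusted p under 0.05 there were 0 lower and 1 higher gene in KO MI against WT MI hearts, 2 lower and 0 higher in the sham comparison, 0 lower and 2 higher in the response difference and 1 lower and 1 higher in the average. At that threshold the counts over all 19938 genes were 941 lower and 1396 higher in MI hearts and 542 and 475 in sham hearts. They were 694 and 943 for the response difference and 665 and 784 in the average. Across all genes the shares called were 0.0401% lower and 0.0301% higher in MI hearts, 0.0251% and 0.00502% in sham hearts, 0% and 0% for the response difference, and 0.0301% and 0.0251% in the average, so a count of 0 among 81 is near the background.

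The genes with an unadjusted p under 0.05 in a KO against WT comparison were few. Cox6a1 was at 0.83 ± 0.30 in KO MI against WT MI hearts (limma adjusted p = 0.337). Ndufs8 was at -0.32 ± 0.12 and Ndufa1 at -0.27 ± 0.12 in KO sham against WT sham hearts (adjusted p = 0.911 and 0.939). Ndufa2 had a response difference of 0.40 ± 0.17 (adjusted p = 0.608). Averaged over conditions, the lowest p-values belonged to Cox8a at 0.21 and Ndufs8 at -0.20 (adjusted p = 0.654 and 0.685). Ndufb9 is the 9th protein-coding gene from Fbxo32 in the order on chromosome 15, and its KO to WT differences were 0.09 in MI and -0.13 in sham hearts.

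The sham groups differed slightly across the set. In KO sham hearts 67 of the 81 genes, or 82.7%, lay below their WT sham mean, against 50.9% of all genes. The median was -0.09 against -0.004 for all genes. Among the 1994 brightest genes 60.3% lay below 0, with a median of -0.035. Of the 67 subunit genes among those bright genes, 56 lay below 0, with a median of -0.096. In the same comparison 7 of the 8 smooth muscle and pericyte markers lay below 0, with a median of -0.63 and no call. At an unadjusted limma p under 0.05, 4 of them were lower, as were 542 of all 19938 genes. The part of these markers in the sham difference was not tested. The other marker lists had medians between -0.18, in erythrocyte markers, and 0.06, in neutrophil markers. Taken by array, the median over the 81 genes stood at -0.12 and -0.04 in the KO sham arrays relative to the WT sham mean, and at -0.16 and -0.08 in the KO MI arrays and -0.17 and -0.12 in the WT MI arrays. KO sham replicate 1 thus lay as low as a WT MI array, and without it the KO to WT difference in sham hearts had a median of -0.04. The 2 KO sham arrays also differed most from each other over the set, by a mean of 0.15 per gene, against 0.085 in the WT sham group. KO MI hearts had a median of 0.05 relative to WT MI hearts, so the median difference of the responses, 0.14 with 69 of 81 genes above 0, drew on both conditions. The response difference lay below 0 for 14.8% of the subunit genes, against 48.9% of all genes and 27.9% of the bright genes. Among the bright genes alone it had a median of 0.12 over all genes and 0.14 over the 67 subunit genes. With cyclic loess the subunit median was 0.03.

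**Figure D5:**
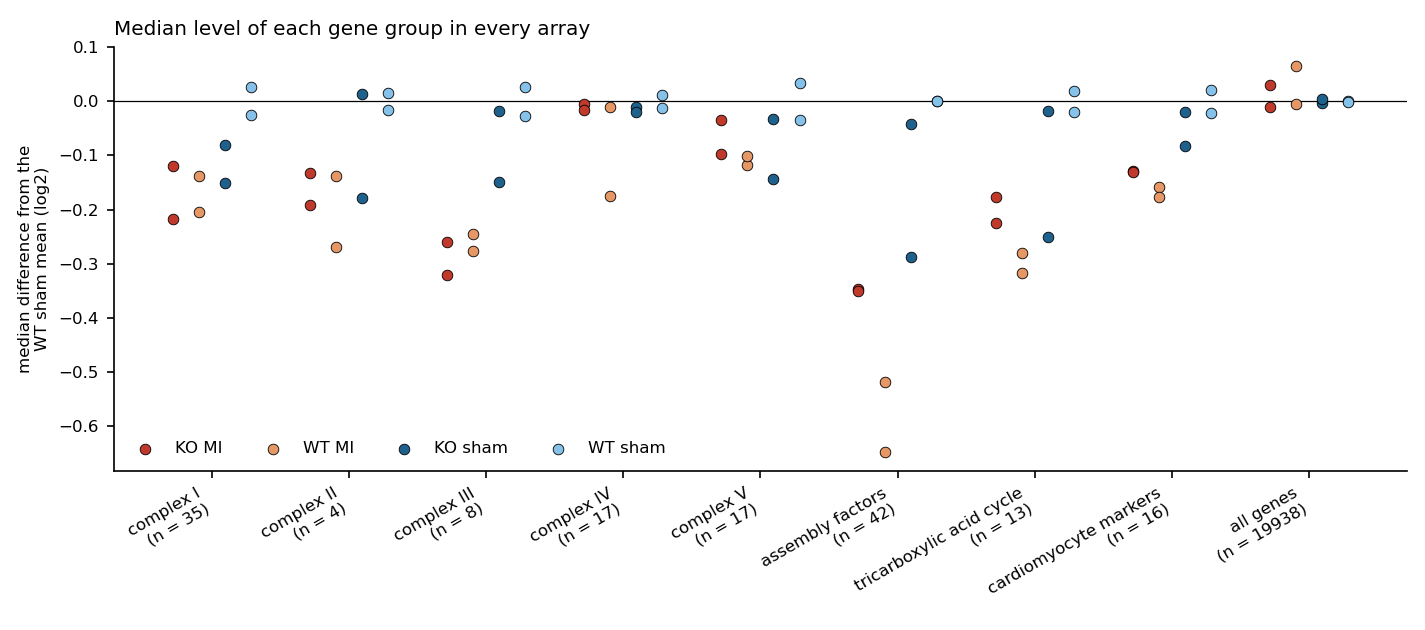
Median over each gene group of the log2 difference from the WT sham mean, 1 point per array, for the 5 complexes, the assembly factors, the tricarboxylic acid cycle, the cardiomyocyte markers and all genes. The assembly factors reach -0.35 in both KO MI arrays and -0.52 and -0.65 in the WT MI arrays, further from 0 than any complex.

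Genes that help build the complexes had larger median changes than the subunit genes. The 2 sets differed in level, with 67 of the 81 subunit genes but 8 of the 42 assembly factors among the 1994 brightest genes. The part of level in the size of the changes was not tested. Of 42 assembly factors measured, 8 fell and 1 rose in KO hearts and 25 fell and 0 rose in WT hearts. The median changes were -0.19 and -0.59 in that order. Across all genes 10.3% fell and 10.5% rose in KO hearts, and 15.8% fell and 12.3% rose in WT hearts. Sdhaf3, an assembly factor of complex II, read 6.84 and 7.01 in KO MI hearts and 7.69 and 7.85 in KO sham hearts, and 6.74 and 6.43 in WT MI hearts and 8.04 and 7.95 in WT sham hearts. Its arrays did not overlap, at -0.84 ± 0.14 in KO hearts (limma adjusted p = 0.0029) and -1.41 ± 0.14 in WT hearts (0.000103), while the complex II subunit genes gave no call. Lyrm7, which assists insertion of the Rieske protein into complex III, had -0.60 in KO hearts (0.00737) and -1.18 in WT hearts (0.000117). Uqcc2, of complex III assembly, had -0.72 and -0.82, and Cox20, of complex IV assembly, had -0.70 and -0.62, all 4 passing. Over the alternatives the number of assembly factors that fell ranged from 3, without KO MI replicate 1, to 12 in KO hearts, and, with all 42 in the fit, from 18, without WT sham replicate 2, to 30 in WT hearts. Among the bright genes alone 8 assembly factors were left, of which 4 fell in KO hearts and all 8 in WT hearts. Of all the bright genes 27.8% fell in KO hearts and 39.1% in WT hearts. The KO median of the assembly factors was -0.29 without KO sham replicate 1 and -0.05 without KO sham replicate 2, with 23 of the 42 below 0 in that case. It therefore depended on which KO sham array was kept. The response difference was positive for 39 of the 42, with 0 calls and 16 higher genes at an unadjusted limma p under 0.05. Of all 19938 genes, 943 were higher at that threshold. The response difference lay below 0 for 7.14% of the assembly factors, against 48.9% of all genes.

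Across all genes the shares called were 10.3% lower and 10.5% higher in KO hearts, and 15.8% and 12.3% in WT hearts. Among regulators of mitochondrial gene expression more genes fell than rose. Of 18 measured, 6 fell and 1 rose in KO hearts and 9 fell and 1 rose in WT hearts, with 3 falling in KO hearts without KO MI replicate 1, and 6 in WT hearts without WT sham replicate 1. Ppargc1a, the coactivator PGC-1 alpha that drives mitochondrial biogenesis, read 9.72 and 9.87 in KO MI hearts and 10.63 and 10.60 in KO sham hearts, and 9.07 and 9.28 in WT MI hearts and 10.52 and 10.48 in WT sham hearts. It fell without overlap, with a log2 change of -0.82 ± 0.13 in KO hearts (limma adjusted p = 0.00171) and -1.32 ± 0.13 in WT hearts (7.05e-05). Its partner Esrrg, an estrogen-related receptor, had -1.09 and -1.34, Ppargc1b had -0.92 and -1.45, and Ppara, a nuclear receptor for fatty acid oxidation, had -0.61 and -1.42, all of them passing. Nrf1, whose motif is given above, had 0.14 in KO hearts (0.544) and 0.28 in WT hearts (0.145), and Gabpa had -0.21 and -0.33, with no call within a genotype.

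The neighbouring steps of the pathway changed as follows. The shares of all genes called were again 10.3% lower and 10.5% higher in KO hearts, and 15.8% and 12.3% in WT hearts. In the tricarboxylic acid cycle 0 of 13 genes passed in KO hearts and 2 fell in WT hearts. The WT calls were lost without WT MI replicate 1 or either WT sham array. With an intensity trend, and also among the bright genes alone, 8 fell in WT hearts, and 2 fell and 1 rose in KO hearts. With that trend 16.8% of all genes fell in WT hearts and 11.2% in KO hearts. Of the bright genes 39.1% fell in WT hearts and 27.8% in KO hearts. In coenzyme Q synthesis 3 of 12 genes fell and 1 rose in KO hearts and 4 fell and 1 rose in WT hearts, and no lower call was left in KO hearts without KO MI replicate 1. Coq8a, a kinase-like protein of that pathway, had -0.76 in KO and -1.43 in WT hearts, and Coq10b, a coenzyme Q binding protein, had 1.03 and 0.99, all 4 passing. Among the ADP/ATP carriers, the heart form Slc25a4 fell in the average over genotypes, at -0.24 (limma adjusted p = 0.0443), and Slc25a5 rose, at 0.31 (0.0241). Cycs, which encodes cytochrome c, averaged -0.26 (0.0308). Etfa had the lowest changes of the 7 electron carriers and other chain subunits, -0.34 in KO and -0.41 in WT hearts. Of those 7 genes 0 fell in KO hearts, 1 in WT hearts and 3 in the average. Ucp3 had the lowest changes of the 10 transport genes measured, -1.29 in KO and -0.44 in WT hearts. Its KO sham arrays read 7.54 and 8.59. Of those 10 genes 1 fell in KO and 0 in WT hearts. The calls of these 2 lists were not repeated under the alternatives. Only 2 of the 13 mitochondrially encoded subunits, ND3 and COX2, were measured, and neither passed.

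Markers of the cell types in the heart moved in the same comparisons, in which 10.3% of all genes fell and 10.5% rose in KO hearts. In WT hearts 15.8% of all genes fell and 12.3% rose. Of 16 cardiomyocyte markers, 3 fell in KO hearts, with a median of -0.12 over the list, and 6 fell in WT hearts, with a median of -0.17, next to subunit medians of -0.05 and -0.15. Without KO MI replicate 2 no cardiomyocyte marker passed in KO hearts and without KO MI replicate 1, KO sham replicate 2 or either WT sham array 1 passed, and without WT MI replicate 2 or either WT sham array 3 passed in WT hearts. Of 10 neutrophil markers, 8 rose in KO and 9 in WT hearts, and of 9 monocyte and macrophage markers, 7 rose in each. Of 9 fibroblast markers, 2 fell and 1 rose in KO hearts and 5 fell in WT hearts. Of 8 smooth muscle and pericyte markers, 3 fell in KO and 7 in WT hearts. Of 9 endothelial markers, 3 fell in KO hearts, with a median of -0.26 over the list, and 2 in WT hearts, with a median of -0.01. None of 6 adipose and 2 erythrocyte markers passed in either genotype. Their part in the subunit changes was not tested.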

How the data were processed

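The deposited values are log2 expression values per probe, made by the authors with RMA in Affymetrix Expression Console, per the submitters' processing notes; no version or further step is given there. Array medians lay between 5.00 and 5.25. Of 35556 probes, 21789 carried 1 gene symbol, 1621 several and 12146 were not listed, and only probes with 1 symbol were used. The probe with the highest mean over the 8 arrays stood for each of 19938 genes. Among symbols that match the rule 4 had only shared probes and were not used, namely Cox7c, Ndufb4, the related Ndufb4b and the pseudogene Ndufs5-ps, and probes can also read processed copies of subunit genes, which was not tested.

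Groups were compared with limma 3.58.1 in R 4.3.3, in 1 fit of 4 group means with 4 residual and 5.57 prior degrees of freedom; KO against WT averaged over conditions came from an additive fit. P-values were adjusted by Benjamini-Hochberg over all genes, and an adjusted p under 0.05 was a call. An exact permutation test of 2 arrays against 2 cannot go below 0.333, so none was used, and 2 arrays per group set the precision. The fit was tested on simulated data. Genes were named by rule: up to 8 called subunit genes per comparison and direction by size, the smallest p-values where none was called, the extremes of each complex and the isoform families. Others are named for their role or because they complete a count, after their values were seen. The members, the lists and the tests were chosen with earlier results of these data known, so no list is independent evidence. Alternatives were an intensity trend, removal of the dimmest genes (13292 kept), the mean of a gene's probes, cyclic loess, median centring, a replicate block, a fit of only the 2 groups compared and leaving out each array. Limiting the fit to the 1994 brightest genes and removing KO sham replicate 1 together with WT MI replicate 2 were added after the data were seen. Promoter windows, gene order and chromosome come from RefSeq GRCm38.p6.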

Additional observations from a re-analysis of the deposited data

Results flagged for a closer look

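In 3 subunit genes every KO MI array lay above every KO sham array while every WT MI array lay below every WT sham array. Atp5e, the epsilon subunit of the ATP synthase, had a log2 change of 0.20 in KO and -0.11 in WT hearts. Ndufa4l2 had 0.205 in KO and -0.102 in WT hearts. Ndufb7, an accessory complex I subunit, had 0.092 in KO and -0.155 in WT hearts. None of the 6 changes passed an adjusted p under 0.05 in limma, and the difference of the responses had an adjusted p of 0.698 for Atp5e, 0.675 for Ndufa4l2 and 0.721 for Ndufb7. The pattern held for 3.7% of the 81 subunit genes, against 2.85% of all genes.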

How the results depend on the processing

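Each comparison was repeated under up to 17 alternatives, and no named subunit gene changed direction in a called comparison. In WT hearts the 12 lower calls became 25 with an intensity trend, 6 with cyclic loess, 16 with median centring and 23 among the 1994 brightest genes, and the 1 higher call became 3 with an intensity trend or without the dimmest genes, 6 with cyclic loess, 2 with only the 2 groups and 5 among the brightest. In KO hearts the 7 lower calls became 3 with only the 2 groups. Averaged over genotypes the 18 lower calls became 10 with cyclic loess. Leaving out 1 array gave 1 to 6 lower and 1 to 5 higher calls in KO hearts, 4 to 19 lower and 1 to 2 higher calls in WT hearts, and 8 to 21 lower and 4 to 6 higher calls in the average. Every KO against WT count stayed at 0 of 81.
The subunit median with cyclic loess was -0.011 in WT hearts, -0.024 in the average, -0.003 for KO MI against WT MI, -0.041 for KO sham against WT sham and 0.033 for the response difference. Removing KO sham replicate 1 and WT MI replicate 2 together gave -0.099 in KO hearts and -0.037 for KO sham against WT sham. Without 1 array the median ranged from -0.099 to -0.001 in KO hearts, -0.178 to -0.113 in WT hearts, 0.006 to 0.071 for KO MI against WT MI, -0.123 to -0.037 for KO sham against WT sham and 0.074 to 0.188 for the response difference. The causes of these shifts were not tested.
With the replicate number as a block, 6 genes fell and 5 rose in KO hearts, 9 fell and 1 rose in WT hearts and 14 fell and 4 rose in the average. Deviations of same-numbered arrays correlated between -0.187 and 0.156. With 2 arrays per group this cannot decide whether the numbers mark a pair or a batch.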
